A study of Mus musculus with 21 samples.

Results

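The potassium channel genes were taken as every gene whose symbol begins with Kcn in the annotation of the array, which gave 84 of the 18193 genes measured. Each gene was read from 1 probe set, the one with the largest SD over all arrays. The 84 members have 167 probe sets between them, and 46 members have more than 1. By symbol they comprise 13 voltage-gated pore subunits of the Kcna to Kcnd groups, 9 voltage-gated modifier subunits (Kcnf, Kcng, Kcns, Kcnv), 6 Kcnh and 3 Kcnq genes. A further 8 (Kcnma, Kcnn, Kcnt, Kcnu) are grouped by symbol as calcium or sodium activated, a heading that does not describe Kcnu1. Of the rest, 15 are inward rectifiers (Kcnj), 12 are 2-pore domain channels (Kcnk), 15 are auxiliary subunits and 3 are non-coding transcripts named after a channel gene.

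Potassium channels let potassium leave or enter a cell, and in neurons they set the resting potential, end the action potential and limit the rate of firing. Voltage-gated subunits open on depolarisation, inward rectifiers and 2-pore channels act around rest, and calcium-activated channels open after calcium has entered. Pore subunits of 1 group assemble together, and auxiliary subunits change how these assemblies are gated and where in the cell they sit.

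The RNA came from post-mitotic neurons purified after differentiation of mouse embryonic stem (ES) cells, and was read on 21 Affymetrix Mouse 430 2.0 arrays, with 3 biological replicates in each of 7 groups. In 3 lines, named NesE-Lmx1a, NesE-Nkx2.2 and NesE-Olig2, a transcription factor is induced, and the name NesE refers to a nestin enhancer. Day 14 Lmx1a neurons and day 10 Lmx1a neurons are labelled as mature and immature midbrain dopaminergic neurons and were made with SHH (sonic hedgehog) and FGF8. Nkx2.2 RA neurons and Nkx2.2 FGF8 neurons are labelled serotonergic and were made over 10 days with SHH and either RA (retinoic acid) or FGF8. Olig2 RA neurons are labelled somatic motor neurons and were made over 8 days with SHH and RA. Wild type (WT) RA neurons at day 8 and WT FGF8 neurons at day 10 served as controls. Of the WT samples the titles name SHH while the source names do not, so the line and SHH cannot be told apart where a line is set against WT. Nkx2.2 RA neurons are also 2 days older than both other RA groups, and WT RA and WT FGF8 neurons differ in day as well as in factor. The labels do not say whether a line is 1 clone or how the neurons were purified.

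Every value below is a log2 signal that, as deposited, is centred on the median of its probe set, so differences between arrays can be read and the level of a gene cannot. A gene near 0 in all groups may be silent or evenly expressed. In bulk RNA, fewer cells of a type and less RNA per cell cannot be told apart. For each labelled class 1 defining marker is given, and it was raised over WT in at least 1 group of that class. Th, the rate-limiting enzyme of dopamine synthesis, was higher in day 10 Lmx1a than in WT FGF8 neurons (log2 fold change 3.87 ± 1.03, adjusted p = 0.0435). Slc6a4, the serotonin transporter, was higher in Nkx2.2 RA than in WT RA neurons (log2 fold change 7.12 ± 1.22, adjusted p = 0.000428). It was also higher in Nkx2.2 FGF8 than in WT FGF8 neurons (log2 fold change 7.97 ± 1.22, adjusted p = 0.00099). Mnx1, a motor neuron factor, was higher in Olig2 RA than in WT RA neurons (log2 fold change 6.97 ± 0.24, adjusted p = 5.17e-11). Not all class markers separate the classes. The mean of 6 dopaminergic genes was 1.60 to 2.10 in day 10 Lmx1a arrays but also 0.79 to 2.03 in Nkx2.2 FGF8 arrays. The mean of 4 serotonergic genes was 3.82 to 5.71 in Nkx2.2 FGF8 arrays, against -2.61 to 0.17 in day 10 Lmx1a arrays. Throughout, ± after a fold change is its standard error from limma, adjusted p-values are limma's over all 18193 genes, and a member was called at an adjusted p under 0.05 with a log2 fold change of at least 1 in size.

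The arrays fall into 2 sets by the bioC hybridization control, 9 with a low and 12 with a high signal, which the labels do not name. All 3 day 10 Lmx1a arrays are in the low-bioC set, and so are 2 of 3 arrays each of day 14 Lmx1a, Olig2 RA and WT FGF8 neurons, while both Nkx2.2 groups and WT RA neurons lie wholly in the high-bioC set. The labelling controls averaged -4.16, -3.89 and -3.87 in day 10 Lmx1a neurons, below every other array, so in comparisons with that group labelling and group cannot be told apart.

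Promoter windows, the 250 bases before a RefSeq transcription start on the mouse GRCm38.p6 build, were found for 64 members, with 89 starts in all. They held a median of 7 CpG dinucleotides, against 6 over all 32851 starts, and 40.4% of them held 10 or more, against 37.8% of all starts. Among starts of members that differed between the groups the share was 38.8%, against 42.5% for the other members. The windows of 4 members with wide group means are shown, with each CG in capitals. They are chr11:110967783-110968032 (plus strand) for the most upstream Kcnj16 start and chr6:126535556-126535805 (minus strand) for Kcna5. The others are chr5:49285660-49285909 (minus strand) for the most upstream Kcnip4 start and chr3:107035912-107036161 (plus strand) for Kcna3.
Kcnj16: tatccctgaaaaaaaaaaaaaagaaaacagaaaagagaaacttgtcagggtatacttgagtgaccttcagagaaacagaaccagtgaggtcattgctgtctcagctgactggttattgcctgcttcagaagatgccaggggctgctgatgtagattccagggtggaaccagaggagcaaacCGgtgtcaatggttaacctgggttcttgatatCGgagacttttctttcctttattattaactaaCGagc
Kcna5: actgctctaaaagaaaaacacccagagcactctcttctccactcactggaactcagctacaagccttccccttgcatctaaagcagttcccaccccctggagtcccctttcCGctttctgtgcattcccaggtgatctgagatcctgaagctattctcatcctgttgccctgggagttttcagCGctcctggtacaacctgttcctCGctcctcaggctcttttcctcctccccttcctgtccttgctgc
Kcnip4: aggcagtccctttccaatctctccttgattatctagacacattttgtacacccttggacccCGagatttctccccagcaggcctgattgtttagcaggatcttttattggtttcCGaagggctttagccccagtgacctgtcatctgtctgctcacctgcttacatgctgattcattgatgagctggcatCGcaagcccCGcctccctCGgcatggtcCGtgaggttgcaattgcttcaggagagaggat
Kcna3: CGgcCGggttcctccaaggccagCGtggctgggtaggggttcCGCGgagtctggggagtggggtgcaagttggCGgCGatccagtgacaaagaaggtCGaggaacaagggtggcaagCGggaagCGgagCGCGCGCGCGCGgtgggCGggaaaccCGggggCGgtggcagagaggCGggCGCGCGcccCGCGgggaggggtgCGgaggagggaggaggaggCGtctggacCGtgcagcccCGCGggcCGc
The Kcnj16 and Kcna5 windows held 3 CG each, the Kcnip4 window 6 and the Kcna3 window 31. Kcnj16 windows not shown held 7, 4 and 1, and the Kcnip4 window not shown held 5. A CG count describes these letters only, since methylation was not measured.

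Of the 84 members, 37 differed between the 7 groups by limma's F test at an adjusted p under 0.05, which is 44.0% of members against 41.3% of all genes. The share of the family lay near that background. The share differed by role. It was 10 of 13 for the Kcna to Kcnd pore subunits, 2 of 3 for Kcnq and 5 of 8 for the calcium or sodium activated genes. It was 5 of 12 for 2-pore channels, 6 of 15 for auxiliary subunits, 2 of 6 for Kcnh, 4 of 15 for inward rectifiers, 2 of 9 for modifiers and 1 of 3 for the non-coding transcripts. These shares are counts, and no difference between roles was tested.

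The highest and lowest groups were counted for members only and not for all genes, so the counts do not set the family apart. Among the 37, Olig2 RA neurons had the lowest group mean for 12 members and the highest for 5. Nkx2.2 RA neurons had the highest mean for 8 members and the lowest for 5, and Nkx2.2 FGF8 neurons the highest for 7 and the lowest for 2. WT RA neurons had the highest mean for 8 and the lowest for 7, and WT FGF8 neurons 4 of each. For the Lmx1a line the counts were 2 highest and 3 lowest at day 14 and 3 highest and 4 lowest at day 10.

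**Figure D1:**
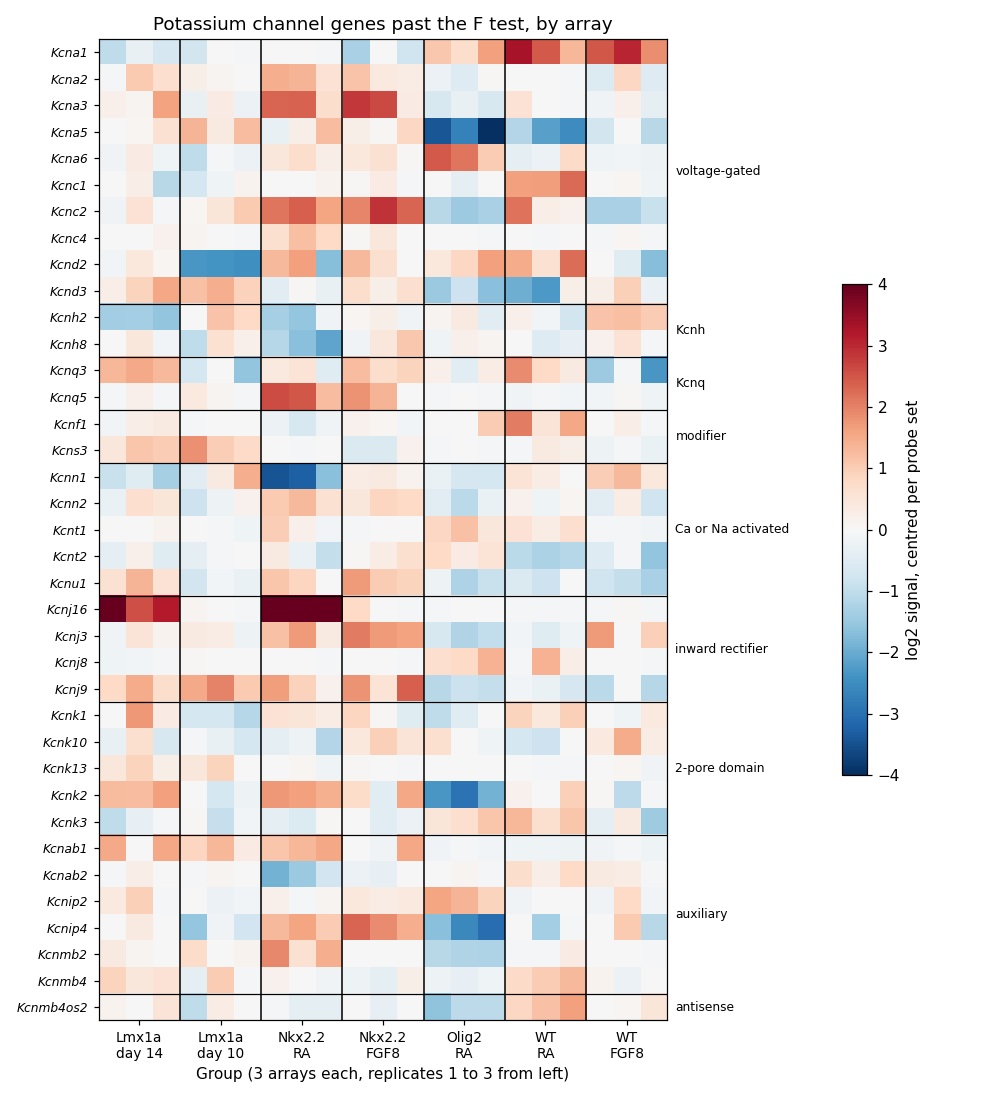
Centred log2 signal of the 37 members past the F test (rows) on each of the 21 arrays (columns, 3 replicates per group), with colours capped at 4 in size. Kcnj16 is high in 2 of the 7 groups only. Of these members 12 have their lowest mean in Olig2 RA neurons, which was not counted for all genes.

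Among members past the F test, the 15 with the widest range of group means were Kcnj16, Kcna5, Kcnip4, Kcnk2, Kcnd2, Kcnn1, Kcnc2, Kcna1, Kcnj3, Kcnq3, Kcnh2, Kcnj9, Kcnmb2, Kcnd3 and Kcna3. Their ranges ran from 5.45 for Kcnj16 to 2.46 for Kcna3 on the log2 scale. They were picked for these ranges, so the levels that follow are a description.

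Kcnj16, an inward rectifier subunit sensitive to pH that works with the astroglial channel Kcnj10, had the widest range of the family. With RA, Kcnj16 was at 4.93, 5.41 and 5.78 in Nkx2.2, -0.05, -0.01 and -0.01 in Olig2 and -0.08, -0.08 and -0.06 in WT neurons. With FGF8, Kcnj16 was at 4.50, 2.57 and 3.17 in day 14 Lmx1a, 0.11, 0.00 and -0.05 in day 10 Lmx1a, 0.81, 0.00 and -0.05 in Nkx2.2 and -0.03, 0.03 and -0.07 in WT neurons. All 6 arrays of Nkx2.2 RA and day 14 Lmx1a neurons lay above 2.5, and no other array reached 1. Nkx2.2 RA neurons also lay above day 14 Lmx1a neurons with no overlap, and the other 5 groups lay near 0 apart from 1 Nkx2.2 FGF8 array. Both Kcnj16 probe sets gave this pattern (r = 0.978 over 21 arrays). Its partner Kcnj10 stayed between -0.06 and 0.93 on all arrays and did not pass the F test (adjusted p = 0.545). The mean of 6 astroglial genes followed Kcnj16 only in part. It was 1.41, 1.49 and 1.68 in Nkx2.2 RA neurons and 0.87, 0.26 and 0.91 in day 14 Lmx1a neurons. In day 10 Lmx1a neurons it was -0.29, -0.71 and -0.67, in Olig2 RA neurons -0.56, -0.56 and -0.73 and in WT FGF8 neurons -0.76, -1.49 and -0.88. But it was 1.27, 0.16 and 0.59 in Nkx2.2 FGF8 and -0.57, 0.15 and 0.81 in WT RA neurons. Both these groups overlapped day 14 Lmx1a neurons in this mean, while no array of either reached 1 for Kcnj16. The part of these genes in the Kcnj16 signal was not tested.

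**Figure D2:**
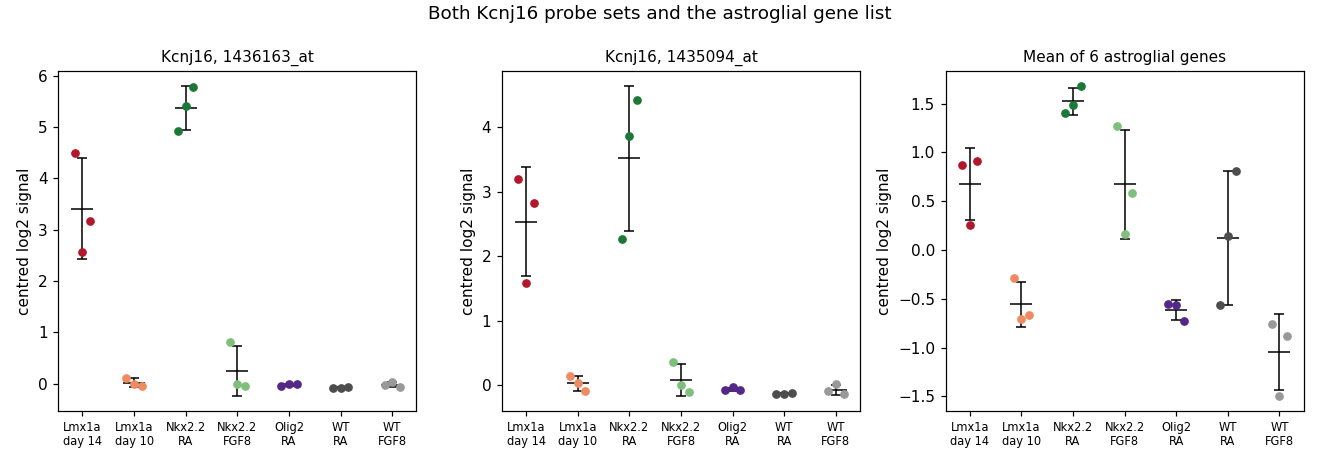
Centred log2 signal by group of both Kcnj16 probe sets and of the mean of 6 astroglial genes; points are arrays and bars are mean ± SD of 3 arrays. Both probe sets are raised in Nkx2.2 RA and day 14 Lmx1a neurons, and the astroglial mean is also raised in Nkx2.2 FGF8 neurons, where Kcnj16 is not.

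Kcnj3 and Kcnj9 encode subunits of the channels that G proteins open after a transmitter binds its receptor, and both had their highest mean in Nkx2.2 FGF8 and their lowest in Olig2 RA neurons. With RA, Kcnj3 was at 1.19, 1.71 and 0.34 in Nkx2.2, -0.64, -1.19 and -1.00 in Olig2 and -0.12, -0.47 and -0.17 in WT neurons. With FGF8, Kcnj3 was at -0.15, 0.52 and 0.15 in day 14 Lmx1a, 0.34, 0.29 and -0.19 in day 10 Lmx1a, 2.08, 1.70 and 1.61 in Nkx2.2 and 1.70, 0.00 and 0.94 in WT neurons. The Olig2 RA arrays of Kcnj3 lay below every other array. With RA, Kcnj9 was at 1.66, 0.93 and 0.17 in Nkx2.2, -1.10, -0.87 and -0.95 in Olig2 and -0.12, -0.26 and -0.68 in WT neurons. With FGF8, Kcnj9 was at 0.80, 1.47 and 0.71 in day 14 Lmx1a, 1.50, 1.99 and 1.05 in day 10 Lmx1a, 1.80, 0.54 and 2.38 in Nkx2.2 and -1.08, 0.00 and -1.15 in WT neurons. Kcnj9 was above 0 on all arrays of both Lmx1a and both Nkx2.2 groups, and not above 0 on any Olig2 or WT array. The 3 other Kcnj9 probe sets spanned 0.162 to 0.486 over all arrays, against 3.52 for the one used, so this pattern rests on 1 probe set. Kcnj6, the subunit of this group best known from midbrain dopaminergic neurons, was flat: it stayed between -0.12 and 0.67 on all arrays, day 14 Lmx1a neurons included (adjusted p of the F test = 0.526).

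Among voltage-gated pore subunits, Kcna5, a delayed rectifier, was low in Olig2 RA and WT RA neurons. With RA, Kcna5 was at -0.29, 0.23 and 1.24 in Nkx2.2, -3.44, -2.71 and -4.17 in Olig2 and -1.16, -2.16 and -2.51 in WT neurons. With FGF8, Kcna5 was at 0.00, 0.08 and 0.62 in day 14 Lmx1a, 1.35, 0.35 and 1.22 in day 10 Lmx1a, 0.24, 0.03 and 0.84 in Nkx2.2 and -0.72, -0.01 and -1.11 in WT neurons. Olig2 RA neurons lay below WT RA neurons, and both lay below every array of the other groups. Kcna1, a delayed rectifier of axons, ran the other way. With RA, Kcna1 was at -0.02, 0.00 and -0.04 in Nkx2.2, 1.08, 0.71 and 1.64 in Olig2 and 3.31, 2.44 and 1.32 in WT neurons. With FGF8, Kcna1 was at -1.01, -0.31 and -0.66 in day 14 Lmx1a, -0.73, -0.01 and -0.03 in day 10 Lmx1a, -1.31, -0.02 and -0.81 in Nkx2.2 and 2.48, 3.04 and 1.85 in WT neurons. Its WT arrays and Olig2 RA arrays were all above 0.7, and no array of the Lmx1a or Nkx2.2 lines was above 0. For Kcna1, 2 of the 3 other probe sets followed the one used (r = 0.962 and 0.879) and the last was flat.

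Kcna3, a subunit also known from T cells, was highest in the Nkx2.2 line. With RA, Kcna3 was at 2.33, 2.36 and 0.70 in Nkx2.2, -0.65, -0.30 and -0.63 in Olig2 and 0.56, 0.00 and -0.08 in WT neurons. With FGF8, Kcna3 was at 0.22, 0.11 and 1.61 in day 14 Lmx1a, -0.30, 0.32 and -0.24 in day 10 Lmx1a, 2.84, 2.63 and 0.33 in Nkx2.2 and -0.15, 0.21 and -0.35 in WT neurons. In each Nkx2.2 group 2 arrays were above 2.3 and 1 was under 1, so the groups differed less evenly than for Kcnj16. Kcnc2, a subunit of fast-firing neurons, was also highest in the Nkx2.2 line. With RA, Kcnc2 was at 2.14, 2.41 and 1.57 in Nkx2.2, -1.12, -1.47 and -1.29 in Olig2 and 2.18, 0.27 and 0.18 in WT neurons. With FGF8, Kcnc2 was at -0.15, 0.57 and -0.09 in day 14 Lmx1a, 0.08, 0.50 and 1.05 in day 10 Lmx1a, 1.96, 2.88 and 2.32 in Nkx2.2 and -1.30, -1.29 and -0.89 in WT neurons. All Nkx2.2 arrays were above 1.5, and all Olig2 RA and WT FGF8 arrays were under -0.8. WT RA neurons overlapped the Nkx2.2 groups through 1 array.

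Kcnd2 and Kcnd3 carry the fast transient current of dendrites. With RA, Kcnd2 was at 1.30, 1.64 and -1.70 in Nkx2.2, 0.42, 0.82 and 1.65 in Olig2 and 1.49, 0.61 and 2.23 in WT neurons. With FGF8, Kcnd2 was at -0.12, 0.41 and 0.07 in day 14 Lmx1a, -2.33, -2.40 and -2.44 in day 10 Lmx1a, 1.31, 0.65 and 0.01 in Nkx2.2 and 0.00, -0.47 and -1.71 in WT neurons. The day 10 Lmx1a arrays of Kcnd2 were the lowest of all and lay within 0.11 of each other. With RA, Kcnd3 was at -0.41, 0.04 and -0.30 in Nkx2.2, -1.49, -0.84 and -1.67 in Olig2 and -1.95, -2.31 and 0.22 in WT neurons. With FGF8, Kcnd3 was at 0.26, 0.89 and 1.54 in day 14 Lmx1a, 1.16, 1.45 and 0.91 in day 10 Lmx1a, 0.69, 0.24 and 0.64 in Nkx2.2 and 0.24, 0.94 and -0.27 in WT neurons. Kcnd3 was above 0 on all 6 Lmx1a arrays and below 0 on all Olig2 RA arrays, while the WT RA arrays were spread from -2.31 to 0.22. The highest Kcnd2 group, WT RA, was the lowest group of Kcnd3.

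Kcnip4, a calcium-binding auxiliary subunit of the Kcnd channels, had the widest range of the auxiliary genes. With RA, Kcnip4 was at 1.30, 1.59 and 1.01 in Nkx2.2, -1.67, -2.59 and -3.06 in Olig2 and 0.00, -1.35 and -0.06 in WT neurons. With FGF8, Kcnip4 was at -0.03, 0.35 and -0.01 in day 14 Lmx1a, -1.56, -0.15 and -0.77 in day 10 Lmx1a, 2.32, 1.88 and 1.45 in Nkx2.2 and -0.02, 1.03 and -1.11 in WT neurons. All 6 Nkx2.2 arrays were at 1.01 or above and all Olig2 RA arrays at -1.67 or below. Its 2 other probe sets followed it (r = 0.922 and 0.929). Kcnmb2, an auxiliary subunit that inactivates the large-conductance calcium-activated channel, was high in Nkx2.2 RA neurons and low in Olig2 RA neurons. With RA, Kcnmb2 was at 1.93, 0.61 and 1.47 in Nkx2.2, -1.12, -1.22 and -1.23 in Olig2 and -0.04, -0.07 and 0.31 in WT neurons. With FGF8, Kcnmb2 was at 0.37, 0.10 and 0.02 in day 14 Lmx1a, 0.73, 0.01 and 0.13 in day 10 Lmx1a, 0.02, 0.00 and -0.02 in Nkx2.2 and 0.00, -0.02 and -0.04 in WT neurons. The Olig2 RA arrays lay within 0.11 of each other and below all others, and the other groups, Nkx2.2 RA apart, were near 0.

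Kcnk2, a 2-pore leak channel opened by stretch and lipids, separated Olig2 RA neurons from all other groups. With RA, Kcnk2 was at 1.74, 1.63 and 1.41 in Nkx2.2, -2.32, -2.94 and -1.89 in Olig2 and 0.17, 0.03 and 0.97 in WT neurons. With FGF8, Kcnk2 was at 1.26, 1.22 and 1.63 in day 14 Lmx1a, 0.00, -0.71 and -0.20 in day 10 Lmx1a, 0.72, -0.41 and 1.54 in Nkx2.2 and 0.06, -1.05 and -0.03 in WT neurons. The Olig2 RA arrays were the lowest, and all arrays of Nkx2.2 RA and day 14 Lmx1a neurons were above 1.2. Kcnn1, a small-conductance calcium-activated channel, was lowest in Nkx2.2 RA neurons. With RA, Kcnn1 was at -3.45, -3.26 and -1.67 in Nkx2.2, -0.25, -0.67 and -0.72 in Olig2 and 0.55, 0.30 and 0.00 in WT neurons. With FGF8, Kcnn1 was at -0.88, -0.50 and -1.34 in day 14 Lmx1a, -0.43, 0.35 and 1.46 in day 10 Lmx1a, 0.30, 0.37 and 0.15 in Nkx2.2 and 0.98, 1.29 and 0.41 in WT neurons. No other array reached the Nkx2.2 RA range, and the second Kcnn1 probe set followed the first (r = 0.972).

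Kcnq3 contributes to the M current, which restrains repeated firing. With RA, Kcnq3 was at 0.39, 0.53 and -0.49 in Nkx2.2, 0.21, -0.46 and 0.30 in Olig2 and 1.88, 0.80 and 0.36 in WT neurons. With FGF8, Kcnq3 was at 1.33, 1.52 and 1.31 in day 14 Lmx1a, -0.71, 0.00 and -1.58 in day 10 Lmx1a, 1.23, 0.70 and 0.90 in Nkx2.2 and -1.44, -0.07 and -2.32 in WT neurons. Day 14 Lmx1a neurons were the tightest and highest group, and all WT FGF8 arrays were below 0. The second Kcnq3 probe set spanned 0.843 over all arrays and did not follow the first (r = 0.160). Kcnh2, the channel also known for the late repolarisation of the heart, was lowest in day 14 Lmx1a neurons. With RA, Kcnh2 was at -1.33, -1.55 and -0.14 in Nkx2.2, 0.11, 0.35 and -0.43 in Olig2 and 0.19, -0.12 and -0.74 in WT neurons. With FGF8, Kcnh2 was at -1.39, -1.36 and -1.58 in day 14 Lmx1a, 0.00, 1.14 and 0.79 in day 10 Lmx1a, 0.08, 0.22 and -0.14 in Nkx2.2 and 1.15, 1.20 and 1.02 in WT neurons. Its WT FGF8 arrays were all above 1. Kcnma1, the pore of the large-conductance calcium-activated channel, had a range of 3.07 between group means but did not pass the F test (adjusted p = 0.0867), with arrays spread within groups, for instance 1.44, 2.37 and -2.14 in day 14 Lmx1a neurons.

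**Figure D3:**
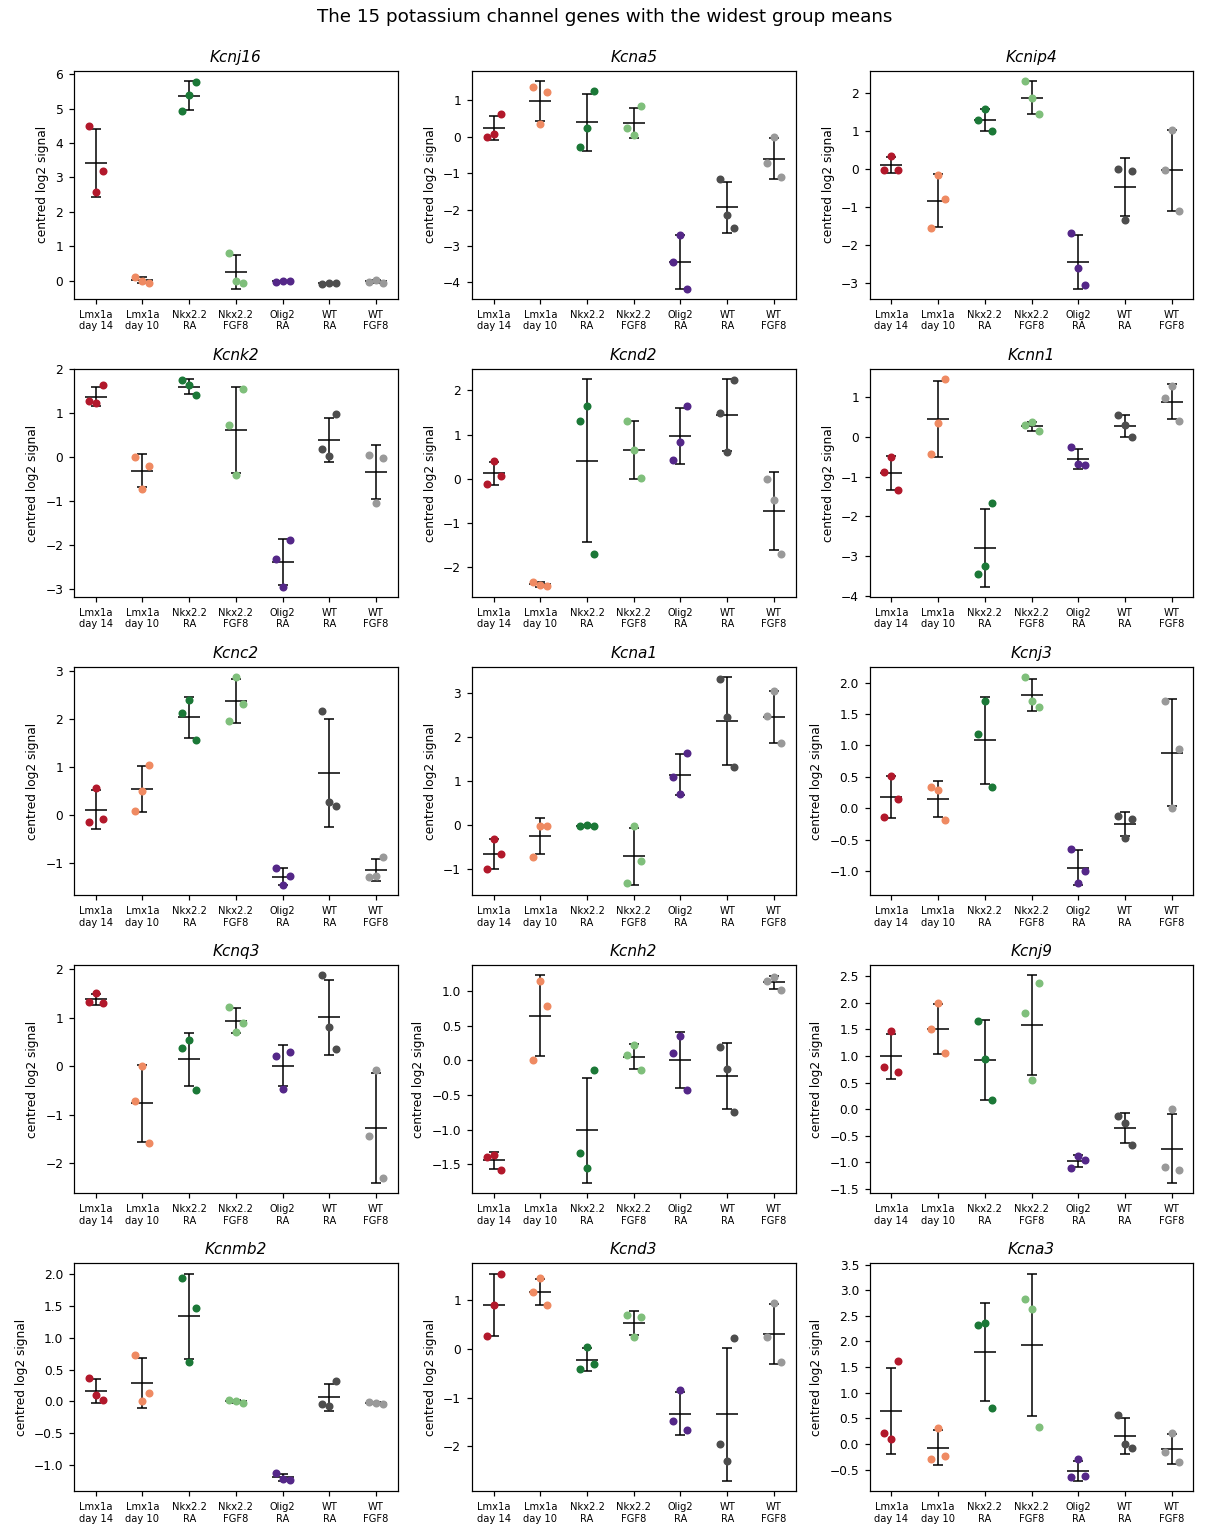
Centred log2 signal by group of the 15 members with the widest group means among those past the F test; points are arrays and bars are mean ± SD of 3 arrays. Olig2 RA neurons are the lowest group of Kcnk2, Kcnip4, Kcna5, Kcnmb2, Kcnc2, Kcnj3, Kcnj9 and Kcna3.

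The only comparison of 2 days within 1 line and factor sets day 14 against day 10 Lmx1a neurons. In it 6 members rose and 1 fell, against 2.96% of all genes called higher, 1.28% lower and 4.24% in either direction. Kcnj16 rose most (log2 fold change 3.39 ± 0.35, adjusted p = 4.57e-05). Kcnd2 (log2 fold change 2.51 ± 0.71, adjusted p = 0.0467), Kcnq3 (log2 fold change 2.15 ± 0.52, adjusted p = 0.0213) and Kcnk2 (log2 fold change 1.68 ± 0.43, adjusted p = 0.0288) also rose, and Kcnh2 fell (log2 fold change -2.08 ± 0.35, adjusted p = 0.00216). Kcnk1, a 2-pore leak channel, was at 0.00, 1.72 and 0.33 in day 14 Lmx1a neurons, against -0.69, -0.69 and -1.14 in day 10 Lmx1a neurons (log2 fold change 1.52 ± 0.40, adjusted p = 0.0327). Kcnu1, a channel best known from sperm, was at 0.60, 1.37 and 0.59 in day 14 Lmx1a neurons, against -0.74, -0.12 and -0.26 in day 10 Lmx1a neurons (log2 fold change 1.23 ± 0.34, adjusted p = 0.0453). The arrays of the 2 days did not overlap for any of these 7 genes. Genes picked by a call mostly have arrays apart, so here and below this adds no support to the calls. The share of all genes with arrays apart was not counted. The mean of 4 genes of dividing cells was -1.83 to -0.92 at day 14, against 0.41 to 1.12 at day 10. None of the 4 was called between the days or passed the F test. Within WT FGF8 neurons alone this mean ran from -1.67 to 2.50. Markers of other cell types were read from lists, and beside each count of called genes below stands, in parentheses, the range over arrays of the mean log2 signal of the list, or the log2 fold change of a gene called alone. Such markers called between the days were 2 higher of 6 astroglial genes (0.26 to 0.91 in day 14, -0.71 to -0.29 in day 10 arrays). Oligodendroglial Cnp (1.73) and progenitor Sox9 (1.82) were the only calls of their lists. Here and in the comparisons that follow, the part of these markers in the calls was not tested. The lists for the dopaminergic, serotonergic and motor neuron classes that the labels name are not part of these counts. With 1 array left out, calls were lost for Kcnd2 without any 1 of the 6 arrays (2.36 to 2.63, adjusted p = 0.0654 to 0.149), Kcnk1 without day 14 Lmx1a array 2 or day 10 Lmx1a array 2 or 3 (1.00 to 1.60, adjusted p = 0.0591 to 0.145) and Kcnk2 without any 1 array other than day 10 Lmx1a array 1 or 3 (1.47 to 1.75, adjusted p = 0.0644 to 0.0954). Kcnq3 without day 14 Lmx1a array 1 or 2 or day 10 Lmx1a array 3 (1.74 to 2.18, adjusted p = 0.0587 to 0.0716) and Kcnu1 without any 1 of the 6 arrays (0.97 to 1.35, adjusted p = 0.0541 to 0.198) were lost too. Of the 7 calls, 4 held in a fit of these groups alone and 4 with the bioC set as a block, and 3 within the low-bioC set.

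**Figure D4:**
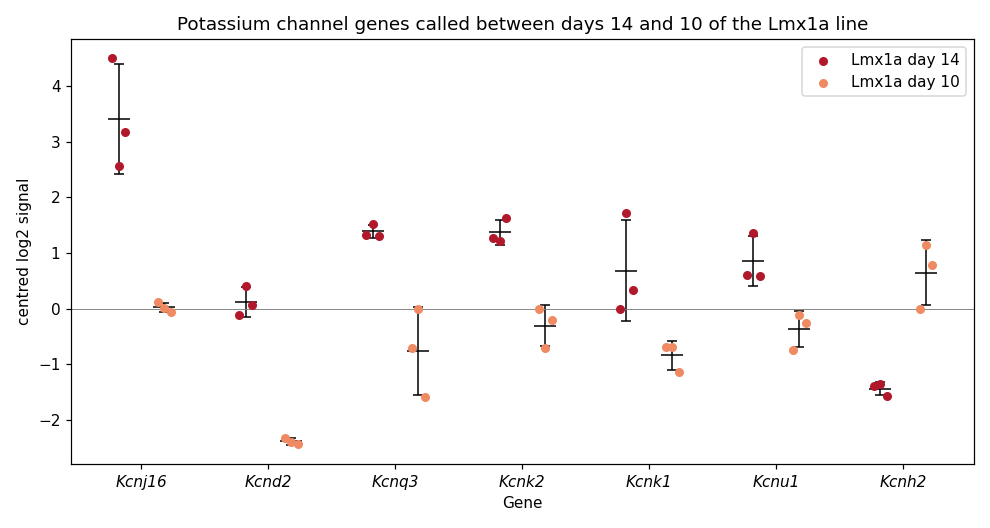
Centred log2 signal of the 7 members called between day 14 (left of each pair) and day 10 (right) of the Lmx1a line; points are arrays and bars are mean ± SD of 3 arrays. Kcnh2 is lower at day 14 and the other 6 are higher, with no overlap of arrays among these genes, which were picked by their calls.

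Day 10 Lmx1a neurons were set against WT FGF8 neurons of the same day. Here 3 members rose and 1 fell, against 1.96% of all genes called higher, 1.36% lower and 3.31% in either direction. Kcnj9 (log2 fold change 2.26 ± 0.46, adjusted p = 0.00961) and Kcnc2 (log2 fold change 1.70 ± 0.44, adjusted p = 0.0369) rose, and Kcna1 fell (log2 fold change -2.72 ± 0.45, adjusted p = 0.00258). Kcns3, a silent modifier that acts through other voltage-gated subunits, was at 1.82, 1.00 and 0.76 in day 10 Lmx1a neurons, against -0.22, -0.04 and -0.27 in WT FGF8 neurons (log2 fold change 1.37 ± 0.25, adjusted p = 0.00472). The other Kcns3 probe set changed by 0.07 and was not called. The arrays were apart for these 4 genes, which were picked by their calls. Markers of cell types called in the same comparison were 3 lower of 4 dorsal interneuron genes (0.04 to 0.69 in Lmx1a, 3.60 to 4.65 in WT arrays) and 2 lower of 7 progenitor genes (-0.47 to 0.61 in Lmx1a, -0.50 to 1.79 in WT arrays). Astroglial Slc1a3 (3.21) and endothelial Kdr (1.66) were the only calls of their lists. Calls that 1 array decided were those of Kcnc2 without any 1 array other than day 10 Lmx1a array 1 (1.45 to 1.84, adjusted p = 0.065 to 0.123) and Kcnj9 without WT FGF8 array 1 (2.09, adjusted p = 0.0507). Of the 4 calls, 1 held in a fit of these groups alone and 3 with the bioC set as a block, and 1 within the low-bioC set.

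Nkx2.2 FGF8 neurons against WT FGF8 neurons ask the same of the Nkx2.2 line. In this comparison 5 members rose and 1 fell, against 2.83% of all genes called higher, 1.71% lower and 4.53% in either direction. Kcnc2 rose most (log2 fold change 3.55 ± 0.44, adjusted p = 0.000148), followed by Kcnj9 (log2 fold change 2.31 ± 0.46, adjusted p = 0.00594), Kcnq3 (log2 fold change 2.22 ± 0.52, adjusted p = 0.018) and Kcnip4 (log2 fold change 1.91 ± 0.52, adjusted p = 0.0368). Kcnu1 was at 1.70, 1.02 and 0.89 in Nkx2.2 FGF8 neurons, against -0.80, -0.94 and -1.30 in WT FGF8 neurons (log2 fold change 2.22 ± 0.34, adjusted p = 0.00113). Kcna1 fell (log2 fold change -3.17 ± 0.45, adjusted p = 0.000521). WT FGF8 neurons are the control of both these comparisons, so the falls of Kcna1 and the rises of Kcnc2 and Kcnj9 in them are not independent. Among cell type markers the calls were 3 lower of 4 dorsal interneuron genes (-0.01 to 0.91 in Nkx2.2, 3.60 to 4.65 in WT arrays) and 2 higher of 6 astroglial genes (0.16 to 1.27 in Nkx2.2, -1.49 to -0.76 in WT arrays). Oligodendroglial Cnp (1.71), mesenchymal Dcn (4.22) and progenitor Pax6 (-5.20) were the only calls of their lists. Leaving out 1 array ended the calls of Kcnip4 without any 1 array other than Nkx2.2 FGF8 array 3 or WT FGF8 array 2 (1.38 to 1.92, adjusted p = 0.0938 to 0.173) and Kcnq3 without Nkx2.2 FGF8 array 1 or WT FGF8 array 1 or 3 (1.70 to 2.13, adjusted p = 0.0706 to 0.0945). Of the 6 calls, 3 held in a fit of these groups alone and 6 with the bioC set as a block, and 3 within the high-bioC set.

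Set against WT RA neurons, Nkx2.2 RA neurons had 11 members higher and 9 lower, against 8.84% of all genes called higher, 9.16% lower and 18.0% in either direction. The largest rise was that of Kcnj16 (log2 fold change 5.45 ± 0.35, adjusted p = 6.39e-08), followed by Kcna5 (log2 fold change 2.34 ± 0.47, adjusted p = 0.00155). Kcnq5, a further M current subunit, was at 2.60, 2.49 and 1.23 in Nkx2.2 RA neurons, against -0.15, -0.08 and -0.10 in WT RA neurons (log2 fold change 2.22 ± 0.37, adjusted p = 0.000358). Kcnip4 (log2 fold change 1.77 ± 0.52, adjusted p = 0.0179) and Kcnj3 (log2 fold change 1.33 ± 0.37, adjusted p = 0.0139) rose too. Kcnab1, a cytoplasmic beta subunit of the Kcna channels, was at 1.10, 1.32 and 1.55 in Nkx2.2 RA neurons, against -0.17, -0.17 and -0.19 in WT RA neurons (log2 fold change 1.50 ± 0.42, adjusted p = 0.0129). The Kcnq5 and Kcnab1 arrays of WT RA neurons lay within 0.1 of each other.

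The largest falls in the same comparison were those of Kcnn1 (log2 fold change -3.07 ± 0.46, adjusted p = 0.000144) and Kcna1 (log2 fold change -2.38 ± 0.45, adjusted p = 0.000936). Kcnab2, the other main beta subunit of the Kcna channels, was at -1.89, -1.48 and -0.77 in Nkx2.2 RA neurons, against 0.69, 0.27 and 0.81 in WT RA neurons (log2 fold change -1.97 ± 0.22, adjusted p = 1.2e-05). Kcnc1, like Kcnc2 a subunit of fast-firing neurons, was at -0.03, 0.00 and 0.14 in Nkx2.2 RA neurons, against 1.65, 1.68 and 2.26 in WT RA neurons (log2 fold change -1.83 ± 0.29, adjusted p = 0.000227). Thus Kcnc1 fell where Kcnc2 did not pass the test (log2 fold change 1.16 ± 0.44, adjusted p = 0.0621), and the probe sets used for the beta subunits moved in opposite directions. The other Kcnab1 and Kcnab2 probe sets changed by 0.03 and -0.14 and were not called, and neither were the other 2 of Kcnq5 (0.03 and 0.01), so these calls rest on 1 probe set each. Kcnf1, a silent modifier, was at -0.25, -0.64 and -0.13 in Nkx2.2 RA neurons, against 2.06, 0.52 and 1.56 in WT RA neurons (log2 fold change -1.72 ± 0.32, adjusted p = 0.000778). Kcnmb4os2, a transcript from the strand opposite Kcnmb4, was at -0.05, -0.38 and -0.41 in Nkx2.2 RA neurons, against 0.82, 1.16 and 1.64 in WT RA neurons (log2 fold change -1.49 ± 0.29, adjusted p = 0.00122). By role the 20 calls were 3 inward rectifiers higher, 2 Kcna to Kcnd subunits higher and 2 lower, 3 auxiliary subunits higher and 2 lower, and at most 1 gene in each direction in any other role. Called cell type markers comprised 3 lower of 4 dorsal interneuron genes (-0.07 to -0.03 in Nkx2.2, 4.35 to 4.67 in WT arrays), 3 lower of 8 neuronal genes (-1.08 to -0.58 in Nkx2.2, 0.22 to 0.80 in WT arrays) and 2 higher of 6 astroglial genes (1.41 to 1.68 in Nkx2.2, -0.57 to 0.81 in WT arrays). There were also 2 higher of 5 oligodendroglial genes (0.93 to 1.39 in Nkx2.2, -0.34 to 0.54 in WT arrays) and 3 higher and 1 lower of 7 progenitor genes (-0.08 to 0.46 in Nkx2.2, -0.23 to 0.50 in WT arrays). Without 1 array, the calls lost were those of Kcna2 without any 1 array other than Nkx2.2 RA array 3 (1.00 to 1.17, adjusted p = 0.0592 to 0.1), Kcnh8 without Nkx2.2 RA array 3 or WT RA array 1 (-1.22 to -1.13, adjusted p = 0.0565 to 0.0583), Kcnip4 without Nkx2.2 RA array 2 or WT RA array 2 (1.33 to 1.62, adjusted p = 0.0648 to 0.0982) and Kcnj3 without Nkx2.2 RA array 2 or WT RA array 2 (1.02 to 1.22, adjusted p = 0.0535 to 0.0777). Kcnj9 without any 1 array other than Nkx2.2 RA array 3 (0.91 to 1.39, adjusted p = 0.0733 to 0.222), Kcnk2 without any 1 array other than WT RA array 3 (1.03 to 1.30, adjusted p = 0.0675 to 0.161), Kcnk3 without Nkx2.2 RA array 1 or 2 or WT RA array 1 (-1.27 to -1.18, adjusted p = 0.0541 to 0.0706) and Kcnmb2 without Nkx2.2 RA array 1 (0.97, adjusted p = 0.00574) were lost too. Kcnmb4 without Nkx2.2 RA array 3 or WT RA array 3 (-0.95 to -0.88, adjusted p = 0.0343 to 0.0448) and Kcnu1 without any 1 array other than Nkx2.2 RA array 3 or WT RA array 3 (0.91 to 1.08, adjusted p = 0.0685 to 0.105) were lost too. Of the 20 calls, 13 held in a fit of these groups alone and 19 with the bioC set as a block, and 17 within the high-bioC set.

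Olig2 RA neurons were compared with WT RA neurons of the same day. Here the falls outnumbered the rises, with 3 members higher and 10 lower, against 5.5% of all genes called higher, 4.85% lower and 10.4% in either direction. Kcnk2 fell most (log2 fold change -2.78 ± 0.43, adjusted p = 0.000457). Kcnmb4os2 was at -1.59, -1.05 and -1.04 in Olig2 RA neurons, against 0.82, 1.16 and 1.64 in WT RA neurons (log2 fold change -2.43 ± 0.29, adjusted p = 5.25e-05). Kcnc2 (log2 fold change -2.17 ± 0.44, adjusted p = 0.00311), Kcnip4 (log2 fold change -1.97 ± 0.52, adjusted p = 0.016) and Kcna5 (log2 fold change -1.49 ± 0.47, adjusted p = 0.0414) fell as well. Kcnc1 was at -0.02, -0.41 and -0.01 in Olig2 RA neurons, against 1.65, 1.68 and 2.26 in WT RA neurons (log2 fold change -2.01 ± 0.29, adjusted p = 0.000251). Both fast-firing subunits were thus lower in Olig2 RA than in WT RA neurons. Kcnc1 was high in WT RA neurons alone, and its highest array elsewhere was at 0.32, in Nkx2.2 FGF8 neurons. WT RA neurons are the control here and for Nkx2.2 RA neurons, so the Kcnc1 falls are not independent. Its rise in WT RA over WT FGF8 neurons, given below, rests on the same WT RA arrays.

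Of the rises in Olig2 RA neurons, Kcna6, a delayed rectifier, was at 2.44, 2.13 and 1.00 in Olig2 RA neurons, against -0.39, -0.22 and 0.75 in WT RA neurons (log2 fold change 1.81 ± 0.36, adjusted p = 0.00263). Kcnt2, a sodium-activated channel, was at 0.80, 0.34 and 0.55 in Olig2 RA neurons, against -1.07, -1.26 and -1.16 in WT RA neurons (log2 fold change 1.73 ± 0.35, adjusted p = 0.00308). Kcnip2, another auxiliary subunit of the Kcnd channels, was at 1.56, 1.35 and 0.89 in Olig2 RA neurons, against -0.14, 0.00 and -0.02 in WT RA neurons (log2 fold change 1.32 ± 0.25, adjusted p = 0.0021), so that Kcnip2 rose where Kcnip4 fell. The other 4 falls, in Kcnmb4, Kcnk1, Kcnmb2 and Kcnf1, ran from -1.26 to -1.04, and Kcnf1 was the only call in which arrays of both groups overlapped. Calls among the cell type markers were 3 lower of 4 dorsal interneuron genes (-0.02 to 0.00 in Olig2, 4.35 to 4.67 in WT arrays), 2 lower of 8 neuronal genes (-0.09 to 0.26 in Olig2, 0.22 to 0.80 in WT arrays) and 2 lower of 6 mesenchymal genes (-0.79 to 0.17 in Olig2, -0.35 to 3.53 in WT arrays). Astroglial Aldh1l1 (-2.83), oligodendroglial Cnp (1.79) and progenitor Pax6 (-3.53) were the only calls of their lists. Dropping 1 array ended the calls of Kcna5 without any 1 array other than Olig2 RA array 2 or WT RA array 3 (-1.60 to -1.10, adjusted p = 0.0753 to 0.199), Kcnf1 without any 1 array other than Olig2 RA array 3 or WT RA array 2 (-0.95 to -0.70, adjusted p = 0.0946 to 0.185), Kcnip4 without any 1 array other than Olig2 RA array 1 or WT RA array 2 (-1.90 to -1.66, adjusted p = 0.0535 to 0.0748) and Kcnk1 without any 1 array other than Olig2 RA array 3 (-1.43 to -1.00, adjusted p = 0.055 to 0.176). Of the 13 calls, 7 held in a fit of these groups alone and 9 with the bioC set as a block, and 2 within the high-bioC set.

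RA against FGF8 within the Nkx2.2 line, both at day 10, gave 2 members higher and 3 lower in Nkx2.2 RA neurons, against 2.66% of all genes called higher, 1.65% lower and 4.31% in either direction. Kcnj16 rose (log2 fold change 5.12 ± 0.35, adjusted p = 3.39e-07), as did Kcnmb2 (log2 fold change 1.33 ± 0.25, adjusted p = 0.00401). Kcnn1 fell (log2 fold change -3.07 ± 0.46, adjusted p = 0.000843). Kcnh8, a voltage-gated channel of the Kcnh group, was at -1.14, -1.67 and -2.11 in Nkx2.2 RA neurons, against -0.16, 0.45 and 1.08 in Nkx2.2 FGF8 neurons (log2 fold change -2.10 ± 0.38, adjusted p = 0.00354). Kcnab2 was at -1.89, -1.48 and -0.77 in Nkx2.2 RA neurons, against -0.24, -0.32 and -0.01 in Nkx2.2 FGF8 neurons (log2 fold change -1.19 ± 0.22, adjusted p = 0.00367). The cell type markers gave 2 lower of 8 neuronal genes (-1.08 to -0.58 in RA, -0.48 to 0.11 in FGF8 arrays) and 2 higher of 5 oligodendroglial genes (0.93 to 1.39 in RA, -0.15 to 0.25 in FGF8 arrays). Astroglial Aldh1l1 (2.27) was the only call of its list. The call lost with 1 array left out was that of Kcnab2 without Nkx2.2 RA array 1 (-0.93, adjusted p = 0.0142). Of the 5 calls, 1 held in a fit of these groups alone and 5 with the bioC set as a block, and 3 within the high-bioC set.

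RA at day 8 against FGF8 at day 10 in WT neurons gave 8 members higher and 1 lower, against 4.29% of all genes called higher, 3.11% lower and 7.4% in either direction. Kcnq3 (log2 fold change 2.29 ± 0.52, adjusted p = 0.0109) and Kcnc2 (log2 fold change 2.04 ± 0.44, adjusted p = 0.00738) rose, and Kcnh2 fell (log2 fold change -1.35 ± 0.35, adjusted p = 0.0204). Kcnip1, a further auxiliary subunit of the Kcnd channels, was at 0.56, 0.37 and 0.61 in WT RA neurons, against -2.51, -0.24 and -3.06 in WT FGF8 neurons (log2 fold change 2.45 ± 0.69, adjusted p = 0.0321). Kcnc1 was at 1.65, 1.68 and 2.26 in WT RA neurons, against -0.01, 0.06 and -0.16 in WT FGF8 neurons (log2 fold change 1.90 ± 0.29, adjusted p = 0.000739). The first of these was uneven among WT FGF8 arrays and the second was even. Kcnk3, a 2-pore leak channel closed by acid, was at 1.32, 0.65 and 1.11 in WT RA neurons, against -0.38, 0.35 and -1.43 in WT FGF8 neurons (log2 fold change 1.51 ± 0.39, adjusted p = 0.0194). Kcnf1 was at 2.06, 0.52 and 1.56 in WT RA neurons, against 0.00, 0.25 and -0.07 in WT FGF8 neurons (log2 fold change 1.32 ± 0.32, adjusted p = 0.0143). Kcnmb4, the neuronal auxiliary subunit of the large-conductance channel, and its opposite-strand transcript rose together. Kcnmb4 was at 0.77, 1.01 and 1.30 in WT RA neurons, against 0.14, -0.25 and 0.00 in WT FGF8 neurons (log2 fold change 1.06 ± 0.27, adjusted p = 0.02), and Kcnmb4os2 at 0.82, 1.16 and 1.64 in WT RA neurons, against 0.00, 0.08 and 0.49 in WT FGF8 neurons (log2 fold change 1.02 ± 0.29, adjusted p = 0.0336). Cell type markers called as well were 2 higher and 1 lower of 4 dorsal interneuron genes (4.35 to 4.67 in RA, 3.60 to 4.65 in FGF8 arrays), 2 higher and 1 lower of 8 neuronal genes (0.22 to 0.80 in RA, 0.16 to 0.68 in FGF8 arrays) and 2 higher of 6 astroglial genes (-0.57 to 0.81 in RA, -1.49 to -0.76 in FGF8 arrays). Oligodendroglial Pdgfra (2.55), mesenchymal Dcn (4.89) and progenitor Sox2 (-1.13) were the only calls of their lists. When 1 array was dropped, calls were lost for Kcnf1 without WT RA array 1 or WT FGF8 array 1 or 3 (0.98 to 1.29, adjusted p = 0.0513 to 0.0695), Kcnh2 without any 1 array other than WT RA array 1 or WT FGF8 array 2 (-1.40 to -1.09, adjusted p = 0.0526 to 0.0755), Kcnip1 without any 1 array other than WT FGF8 array 2 (1.89 to 2.52, adjusted p = 0.0699 to 0.14) and Kcnk3 without WT RA array 1 or WT FGF8 array 1 or 3 (1.04 to 1.56, adjusted p = 0.0513 to 0.0882). Kcnmb4 without any 1 array other than WT RA array 1 or WT FGF8 array 1 (0.92 to 1.08, adjusted p = 0.0558 to 0.0654), Kcnmb4os2 without any 1 array other than WT RA array 1 or WT FGF8 array 3 (0.80 to 1.04, adjusted p = 0.0765 to 0.124) and Kcnq3 without WT RA array 1 or WT FGF8 array 3 (1.77 to 1.86, adjusted p = 0.0554 to 0.0582) were lost too. Of the 9 calls, 3 held in a fit of these groups alone and 3 with the bioC set as a block, and 4 within the high-bioC set.

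Dopaminergic and serotonergic neurons of 1 day and factor were compared as day 10 Lmx1a against Nkx2.2 FGF8 neurons, with 1 member higher and 6 lower, against 2.2% of all genes called higher, 2.87% lower and 5.07% in either direction. The falls in Lmx1a neurons were Kcnd2 (log2 fold change -3.04 ± 0.71, adjusted p = 0.016), Kcnip4 (log2 fold change -2.71 ± 0.52, adjusted p = 0.00537) and Kcna3 (log2 fold change -2.01 ± 0.59, adjusted p = 0.0459). Kcnc2 (log2 fold change -1.85 ± 0.44, adjusted p = 0.0171) and Kcnj3 (log2 fold change -1.65 ± 0.37, adjusted p = 0.0135) fell as well. Kcnu1 was at -0.74, -0.12 and -0.26 in day 10 Lmx1a neurons, against 1.70, 1.02 and 0.89 in Nkx2.2 FGF8 neurons (log2 fold change -1.58 ± 0.34, adjusted p = 0.0109), and Kcns3 at 1.82, 1.00 and 0.76 in day 10 Lmx1a neurons, against -0.58, -0.59 and 0.18 in Nkx2.2 FGF8 neurons (log2 fold change 1.52 ± 0.25, adjusted p = 0.00211). Thus Kcnd2 and its auxiliary subunit Kcnip4 were both lower in day 10 Lmx1a neurons. Of the cell type markers, calls were 2 lower of 6 astroglial genes (-0.71 to -0.29 in Lmx1a, 0.16 to 1.27 in Nkx2.2 arrays) and 2 lower of 5 oligodendroglial genes (-0.97 to -0.65 in Lmx1a, -0.15 to 0.25 in Nkx2.2 arrays). Mesenchymal Dcn (-4.64), progenitor Sox9 (-1.99) and endothelial Kdr (1.41) were the only calls of their lists. Omitting 1 array ended the calls of Kcna3 without any 1 array other than Nkx2.2 FGF8 array 3 (-2.20 to -1.56, adjusted p = 0.0702 to 0.194), Kcnc2 without Nkx2.2 FGF8 array 2 (-1.60, adjusted p = 0.0817) and Kcnd2 without Nkx2.2 FGF8 array 1 or 2 (-3.05 to -2.71, adjusted p = 0.0523 to 0.0774). Kcnj3 without Nkx2.2 FGF8 array 1 (-1.51, adjusted p = 0.0655) and Kcnu1 without Nkx2.2 FGF8 array 1 (-1.33, adjusted p = 0.0631) were lost too. Of the 7 calls, 2 held in a fit of these groups alone and 3 with the bioC set as a block. The labelling controls differ between these groups as stated above, and the groups share no bioC set.

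Serotonergic and motor neurons made with RA, Nkx2.2 RA at day 10 against Olig2 RA at day 8, differed in the most members, 15 higher and 6 lower, against 6.19% of all genes called higher, 6.94% lower and 13.1% in either direction. Kcnj16 (log2 fold change 5.39 ± 0.35, adjusted p = 5.41e-08), Kcnk2 (log2 fold change 3.98 ± 0.43, adjusted p = 9.64e-06) and Kcna5 (log2 fold change 3.83 ± 0.47, adjusted p = 3.35e-05) rose most. Kcnip4 (log2 fold change 3.74 ± 0.52, adjusted p = 9.57e-05), Kcnc2 (log2 fold change 3.33 ± 0.44, adjusted p = 5.73e-05) and Kcnmb2 (log2 fold change 2.53 ± 0.25, adjusted p = 3.85e-06) came next. The calls higher in Nkx2.2 RA neurons included 5 Kcna to Kcnd subunits, 3 inward rectifiers and 3 auxiliary subunits. They also included 2 genes grouped by symbol as calcium or sodium activated, Kcnn2 and Kcnu1. The other rises, 9 in all, ran from 1.34 to 2.32.

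Of the falls in Nkx2.2 RA against Olig2 RA neurons, Kcnn1 was the largest (log2 fold change -2.25 ± 0.46, adjusted p = 0.00235). Kcnh1, a voltage-gated channel of the Kcnh group, was at -0.06, -0.08 and 0.13 in Nkx2.2 RA neurons, against 1.33, 1.95 and 2.25 in Olig2 RA neurons (log2 fold change -1.85 ± 0.52, adjusted p = 0.0185). Kcnh8 was at -1.14, -1.67 and -2.11 in Nkx2.2 RA neurons, against -0.17, 0.19 and 0.12 in Olig2 RA neurons (log2 fold change -1.69 ± 0.38, adjusted p = 0.0046). Kcna6 was at 0.44, 0.69 and 0.26 in Nkx2.2 RA neurons, against 2.44, 2.13 and 1.00 in Olig2 RA neurons (log2 fold change -1.39 ± 0.36, adjusted p = 0.0103). Kcnab2 (log2 fold change -1.39 ± 0.22, adjusted p = 0.000271) and Kcnip2 (log2 fold change -1.19 ± 0.25, adjusted p = 0.00292) fell as well. No arrays of the groups overlapped for any of the 21 calls, which were picked by the size and adjusted p of the same differences. Cell type markers called beside them were 2 lower of 8 neuronal genes (-1.08 to -0.58 in Nkx2.2, -0.09 to 0.26 in Olig2 arrays), 2 higher of 6 astroglial genes (1.41 to 1.68 in Nkx2.2, -0.73 to -0.56 in Olig2 arrays) and 3 higher of 6 mesenchymal genes (0.54 to 2.01 in Nkx2.2, -0.79 to 0.17 in Olig2 arrays). Oligodendroglial Mbp (2.32) was the only call of its list. Calls resting on single arrays were those of Kcna2 without Nkx2.2 RA array 1 or 2 or Olig2 RA array 2 (1.21 to 1.25, adjusted p = 0.0531 to 0.0593), Kcna4 without any 1 array other than Nkx2.2 RA array 3 (0.99 to 1.41, adjusted p = 0.0795 to 0.207) and Kcna6 without Olig2 RA array 1 (-1.10, adjusted p = 0.0616). Kcnab1 without any 1 array other than Nkx2.2 RA array 1 (1.31 to 1.45, adjusted p = 0.0542 to 0.0662) and Kcnh1 without any 1 array other than Nkx2.2 RA array 3 or Olig2 RA array 1 (-1.82 to -1.65, adjusted p = 0.0541 to 0.0702) were lost too. Of the 21 calls, 17 held in a fit of these groups alone and 16 with the bioC set as a block, and 7 within the high-bioC set.

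**Figure D5:**
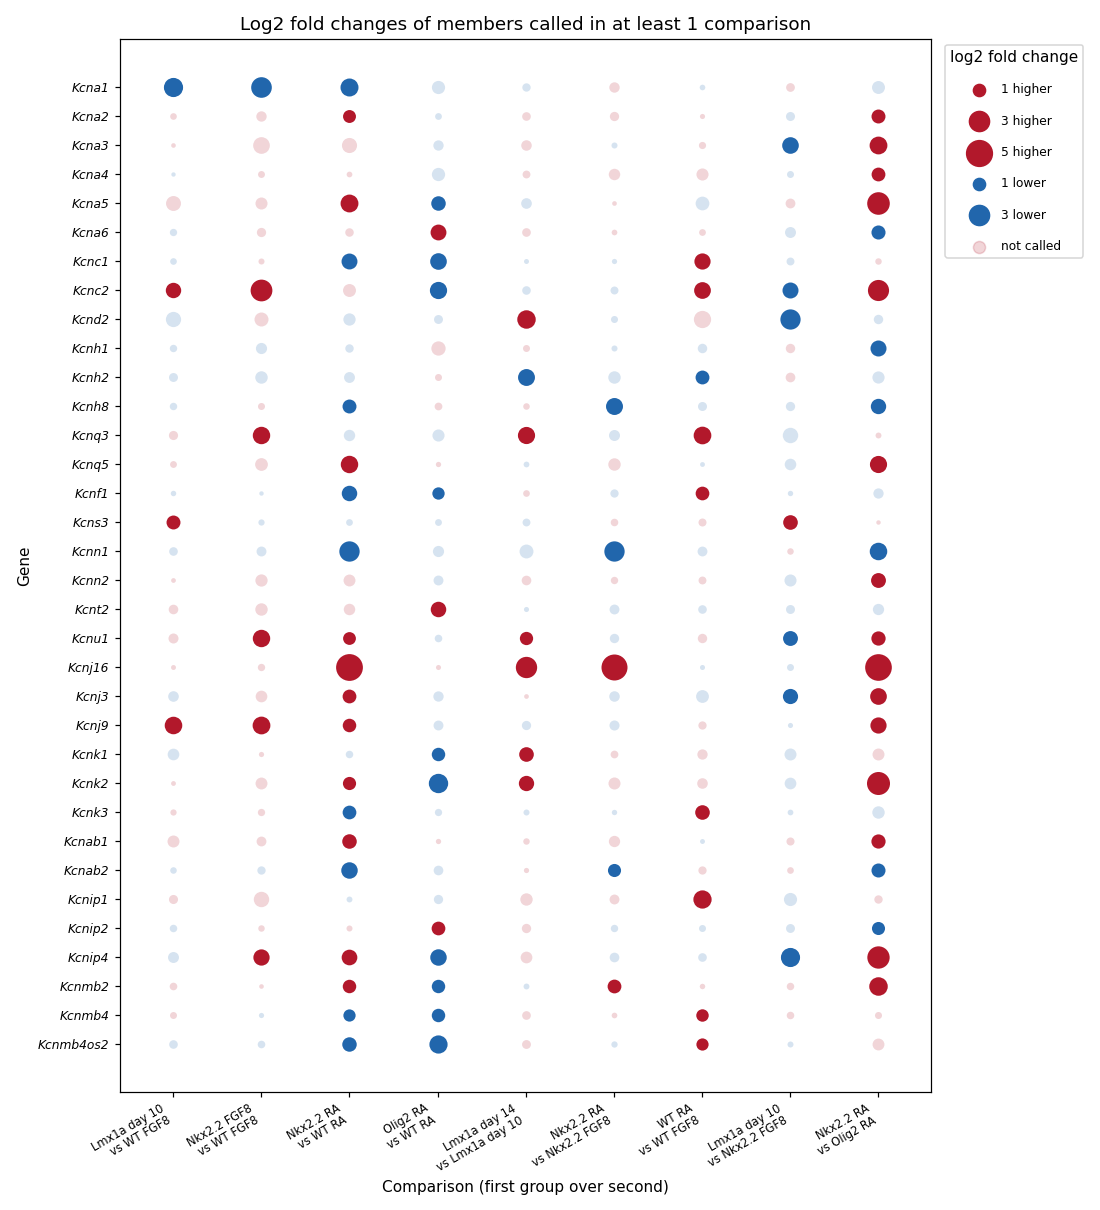
Log2 fold changes of the 34 members called in at least 1 of the 9 comparisons (columns, first group over second); dot size gives the size of the change, red is higher, blue is lower, and pale dots were not called. The columns with Nkx2.2 RA over Olig2 RA (21 calls) and over WT RA (20 calls) hold the most calls.

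The comparisons gave 99 calls in 34 genes, the interaction below included. Of these, 54 held with each array left out in turn, and 19 calls in 13 genes held under every alternative that was run. Kcnj16 was among the 19 in each comparison where it was called. Among the 34 genes, Kcnh1, Kcnip1 and Kcna4 did not pass the F test over the 7 groups (adjusted p = 0.0954, 0.0538 and 0.125).

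Whether the Nkx2.2 line differed from WT by factor was tested as an interaction, the log2 difference of Nkx2.2 FGF8 over WT FGF8 minus that of Nkx2.2 RA over WT RA. It passed for 7 members, 6 positive and 1 negative, against 2.6% of all genes positive, 1.78% negative and 4.38% in either direction. The negative one was Kcnj16 (log2 fold change -5.17 ± 0.50, adjusted p = 2.29e-05), which rose with RA and did not pass the test with FGF8. The positive ones were Kcnq3, Kcnn1, Kcnc2, Kcnc1, Kcnf1 and Kcnab2, with log2 differences of 1.58 to 3.09. Between RA and FGF8, Kcnq3, Kcnc2, Kcnc1 and Kcnf1 were called in WT neurons and not in the Nkx2.2 line. Kcnj16, Kcnn1 and Kcnab2 were called in the Nkx2.2 line and not in WT neurons. Among cell type markers the interaction passed for neuronal Elavl3 and Rbfox3 and mesenchymal Dcn, all positive, and for dorsal interneuron Pax8 (positive) and Lhx9 (negative). Since the RA arm sets day 10 against day 8, day and factor cannot be told apart in this test.

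Genes that work with potassium channels were read from a list of 31, of which 25 were measured and 14 passed the F test, against 41.3% of all genes. In Nkx2.2 RA against WT RA neurons, 3 of the 25 were called higher and 5 lower, against 18.0% of all genes in either direction. In Nkx2.2 RA against Olig2 RA neurons 5 were higher and 3 lower, against 13.1%, and in Olig2 RA against WT RA neurons 1 was higher and 3 lower, against 10.4%. Dpp10, an auxiliary subunit of the Kcnd channels, was higher in Nkx2.2 RA than in Olig2 RA neurons (log2 fold change 5.13 ± 0.59, adjusted p = 1.77e-05). It was lower in Olig2 RA than in WT RA neurons (log2 fold change -2.78 ± 0.59, adjusted p = 0.00449), as Kcnip4 was. Both genes were also called higher in each Nkx2.2 group than in its WT control. In day 10 Lmx1a over WT FGF8 neurons only Dpp10 of these was called (log2 fold change 2.32 ± 0.59, adjusted p = 0.0361). In day 10 Lmx1a over Nkx2.2 FGF8 neurons only Kcnip4 was. Cntnap2, which gathers Kcna channels beside the nodes of the axon, was lower in Olig2 RA than in WT RA neurons (log2 fold change -2.30 ± 0.36, adjusted p = 0.000504). It was as low in Nkx2.2 RA against WT RA neurons (log2 fold change -2.28 ± 0.36, adjusted p = 0.000224). Both falls rest on the same WT RA arrays, so they are not independent. Atp1b2, a beta subunit of the sodium pump found in astroglia, was higher in each of the 4 comparisons in which Kcnj16 rose. These were day 14 over day 10 Lmx1a (log2 fold change 2.44 ± 0.43, adjusted p = 0.00284), and Nkx2.2 RA over WT RA (log2 fold change 2.21 ± 0.43, adjusted p = 0.0011), over Nkx2.2 FGF8 (log2 fold change 1.87 ± 0.43, adjusted p = 0.0144) and over Olig2 RA neurons (log2 fold change 2.80 ± 0.43, adjusted p = 0.000218). All but the first share the Nkx2.2 RA arrays, so they are not independent, and Atp1b2 is 1 of the 25 genes measured.

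Among the 15 widest members, the most alike over the 21 arrays were Kcnip4 and Kcnj3 (Pearson r = 0.798), Kcnip4 and Kcna3 (r = 0.784) and Kcnk2 and Kcnmb2 (r = 0.775). Kcnj16 and Kcnn1 were the most opposed (r = -0.824). These are descriptions over arrays that share groups, so no p is given. By the gene order of GRCm38.p6, 9 pairs of members are neighbours with no coding gene between them. Kcna2 and Kcna3 on chromosome 3 were alike (r = 0.740). Kcna5 and Kcna1, neighbours on chromosome 6, ran in opposite directions (r = -0.545), and Kcna1 and Kcna6, next in order, were unrelated (r = 0.007). Neighbours thus did not share 1 pattern.

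Of the 84 members, 37 had a range under 1 over all 21 arrays, and the remaining 47 (56.0%) had 1 or more, against 62.8% of all genes. The flat members included 11 inward rectifiers (Kcnj1, Kcnj2, Kcnj4, Kcnj5, Kcnj6, Kcnj10, Kcnj11, Kcnj12, Kcnj13, Kcnj14 and Kcnj15), which is most of that group. They also included Kcnn3, a calcium-activated channel of dopaminergic neurons, whose group means differed by at most 0.13, and Kcnj11, the pore of the channel that ATP closes, whose group means differed by at most 0.24. Whether these genes were silent or evenly expressed cannot be read from centred values.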

How the data were processed

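The authors deposited log2 values from GCRMA (version not stated), per the submitters' processing notes. Each probe set was further centred on its median over 27 arrays, as the deposited values show: no probe set has over 13 values on either side of 0, and for 79.2% a value is exactly 0. The median includes 6 arrays that are not used here. Per the labels, biotin-labelled cRNA was made from 2 ug of total RNA. Of 45101 probe sets, 34945 have 1 gene symbol, 932 several and 9160 none here, and 64 are controls. No filter on low values was possible. Each gene was read from the probe set with the largest SD. Other probe sets of a called member were often not called. Among others this held for Kcns3, Kcnh1, Kcnk3, Kcnf1, Kcna6 and Kcnk1 in every comparison that called them. Group means were fitted with limma 3.58.1 in R 4.3.3 (14 residual and 1.11 prior degrees of freedom), and p-values were adjusted by Benjamini-Hochberg over 18193 genes. Named members are the 15 with the widest group means past the F test and, per comparison, all called members up to 12, otherwise the 6 largest rises and falls. Members and lists were chosen with earlier results of these data known. On average replicate numbers did not pair arrays: same-numbered residuals correlated at 0.00603 over 63 pairs, different ones at -0.00337 over 126. A mean over all pairs cannot exclude a batch shared by some same-numbered arrays. In day 14 Lmx1a, Olig2 RA and WT FGF8 neurons the only high-bioC array was replicate 3. Alternatives were leaving out arrays, other probe set rules, and the bioC set as a block. The number of arrays limits the precision.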

Additional observations from a re-analysis of the deposited data

Results flagged for a closer look

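For 7 members the log2 difference of the Nkx2.2 line over WT differed between FGF8 and RA by the interaction term of limma's fit, which is the difference with FGF8 minus that with RA. Kcnj16 had an interaction of -5.17 ± 0.50 (adjusted p = 2.29e-05), from 0.27 ± 0.35 (adjusted p = 0.899) with FGF8 and 5.45 ± 0.35 (adjusted p = 6.39e-08) with RA. Kcnq3 had one of 3.09 ± 0.74 (adjusted p = 0.0257), from 2.22 ± 0.52 (adjusted p = 0.018) with FGF8 and -0.87 ± 0.52 (adjusted p = 0.28) with RA. For Kcnn1 it was 2.45 ± 0.65 (adjusted p = 0.0404), from -0.62 ± 0.46 (adjusted p = 0.578) with FGF8 and -3.07 ± 0.46 (adjusted p = 0.000144) with RA, and for Kcnc2 2.38 ± 0.62 (adjusted p = 0.0372), from 3.55 ± 0.44 (adjusted p = 0.000148) with FGF8 and 1.16 ± 0.44 (adjusted p = 0.0621) with RA. Kcnc1 gave 1.97 ± 0.41 (adjusted p = 0.0129), from 0.14 ± 0.29 (adjusted p = 1) with FGF8 and -1.83 ± 0.29 (adjusted p = 0.000227) with RA. The values for Kcnf1 were 1.71 ± 0.45 (adjusted p = 0.0389), from -0.01 ± 0.32 (adjusted p = 1) with FGF8 and -1.72 ± 0.32 (adjusted p = 0.000778) with RA. Kcnab2 gave 1.58 ± 0.31 (adjusted p = 0.00888), from -0.39 ± 0.22 (adjusted p = 0.365) with FGF8 and -1.97 ± 0.22 (adjusted p = 1.2e-05) with RA. For Kcnq3, Kcnc2, Kcnc1 and Kcnf1 it was the 2 WT groups that differed by a call, and the 2 Nkx2.2 groups did not. The reverse held for Kcnj16, Kcnn1 and Kcnab2. The RA difference sets day 10 against day 8 and the FGF8 difference compares 1 day, so factor and day cannot be told apart. Interactions were lost with 1 array left out for Kcnc2 without Nkx2.2 FGF8 array 2 or 3 or Nkx2.2 RA array 1 or 3 or WT FGF8 array 1 or 3 (2.14 to 2.52, adjusted p = 0.0598 to 0.0886) and Kcnf1 without any 1 array other than Nkx2.2 RA array 3 or WT FGF8 array 2 or WT RA array 2 (1.37 to 1.79, adjusted p = 0.0536 to 0.0958). Kcnn1 without any 1 array other than Nkx2.2 RA array 3 or WT FGF8 array 2 or WT RA array 3 (2.13 to 2.52, adjusted p = 0.062 to 0.11) and Kcnq3 without Nkx2.2 FGF8 array 1 or WT FGF8 array 1 or 3 or WT RA array 1 (2.57 to 3.00, adjusted p = 0.0591 to 0.0687) were lost too. Of the 7 calls, 2 held in a fit of these groups alone and 5 with the bioC set as a block, and 3 within the high-bioC set.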

How the results depend on the processing

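The number of members past the F test, 37, stayed between 33 and 40 under all alternatives run (33 to 39 with 1 array left out, 36 with the replicate block). The replicate block was used although the numbers did not pair arrays on average. It gave counts within 1.5 times the main one in every comparison. For day 14 against day 10 Lmx1a neurons, for instance, it gave 5 instead of 7. No call changed sign under any alternative: of 1615 values, 1261 kept the call and 354 lost it. Counts that moved by over 1.5 times follow, and the cause was not tested, though fewer arrays or fewer residual degrees of freedom enter some fits. In a fit of only the arrays compared, the counts were 1 instead of 4 (day 10 Lmx1a over WT FGF8), 13 instead of 20 (Nkx2.2 RA over WT RA), 7 instead of 13 (Olig2 RA over WT RA), 4 instead of 7 (Lmx1a day 14 over day 10), 1 instead of 5 (Nkx2.2 RA over Nkx2.2 FGF8), 3 instead of 9 (WT RA over WT FGF8), 2 instead of 7 (day 10 Lmx1a over Nkx2.2 FGF8) and 2 instead of 7 (interaction). With the mean of all probe sets they were 13, 13 and 3 for Nkx2.2 RA over WT RA, Nkx2.2 RA over Olig2 RA and the interaction. With the bioC set as a block they were 4 each for Lmx1a day 14 over day 10, WT RA over WT FGF8 and day 10 Lmx1a over Nkx2.2 FGF8. Within the low-bioC set they were 2 for day 10 Lmx1a over WT FGF8 and 3 for Lmx1a day 14 over day 10. Within the high-bioC set they were 2 for Olig2 RA over WT RA, 3 for Nkx2.2 RA over Nkx2.2 FGF8, 4 for WT RA over WT FGF8 and 8 for Nkx2.2 RA over Olig2 RA; these fits, chosen after seeing the data as was that of every probe set singly, assume that a lone array varies like the other groups. Without Lmx1a day 10 array 1, WT FGF8 array 2 and Nkx2.2 FGF8 array 1 together, day 10 Lmx1a over Nkx2.2 FGF8 gave 3. With 1 array left out, counts ran from 2 to 5 (day 10 Lmx1a over WT FGF8), 4 to 10 (Nkx2.2 FGF8 over WT FGF8), 14 to 23 (Nkx2.2 RA over WT RA), 9 to 12 (Olig2 RA over WT RA), 2 to 7 (Lmx1a day 14 over day 10), 4 to 8 (Nkx2.2 RA over Nkx2.2 FGF8), 3 to 8 (WT RA over WT FGF8), 3 to 8 (day 10 Lmx1a over Nkx2.2 FGF8), 17 to 23 (Nkx2.2 RA over Olig2 RA) and 3 to 8 (interaction).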
